A study of Mus musculus with 12 samples.

Results

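Dopamine receptors and the G protein-gated inward rectifier potassium (GIRK) channels were examined in the ventral tegmental area (VTA) of mice at 3 ages. All probe sets annotated to exactly 1 of the genes Drd1, Drd2, Drd3, Drd4, Drd5, Kcnj3, Kcnj5, Kcnj6 and Kcnj9 were taken, whatever their values. These 9 genes had 21 probe sets among the 45037 tested on the array, and 8 of the 9 genes were represented. No probe set was annotated to Drd5 alone, and this gene was not analysed here. The animals were wild type C57BL/6 mice, given as C57 in the labels, aged 2 months (young), 10 months or 18 months (late middle-aged), with no other treatment. The dissected VTA of 5 mice was pooled before RNA was isolated, for each of 12 arrays, 4 per age. The spread between arrays is therefore a spread between pools. Young arrays 3 and 4 were nearly the same, with 1 probe set more than 1 apart on the log2 scale, while any of the 17 remaining same-age pairs had 85 to 4905. Their mean was counted as 1 sample. This left 3 samples at 2 months and 4 at each later age.

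Dopamine acts on D1-like receptors (Drd1, Drd5), which couple to Gs and Golf and raise cAMP, and on D2-like receptors (Drd2, Drd3, Drd4), which couple to Gi and Go. In the midbrain, the D2 receptor is the main autoreceptor of dopaminergic neurons. When it is activated, the beta and gamma subunits released from Gi/o open GIRK channels, potassium leaves the cell and firing slows. GIRK channels are tetramers of GIRK1 (Kcnj3), GIRK2 (Kcnj6), GIRK3 (Kcnj9) and GIRK4 (Kcnj5). Midbrain dopaminergic neurons use mainly GIRK2 and GIRK3, whereas GIRK1 is common in other neurons and GIRK4 is best known from the heart.

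None of the receptors or channels passed the test at any age. A probe set was called changed when its adjusted p in limma was under 0.05 and its change exceeded 1.3-fold, the thresholds of the study. At 18 against 2 months 0 of 21 probe sets were called, against 7.46% of all probe sets, and at 10 against 2 months 0 of 21, against 1.36%. At 18 against 10 months 0 of 21 were called, against 0.00222% of all probe sets. At an unadjusted p under 0.05 the counts were 2, 2 and 0 of 21 in these 3 comparisons, against 23.6%, 15.6% and 5.06% of all probe sets. The smallest adjusted p (limma) was 0.0784, 0.231 and 0.847 in the same order. The median log2 change of the 21 probe sets was −0.0957 at 18 against 2 months, −0.0132 at 10 against 2 months and −0.0924 at 18 against 10 months. Both later ages were set against the same young samples.

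The precision differed between probe sets. At 18 against 2 months the 95% interval of the change lay within 2-fold in either direction for 18 of 21 probe sets, but within 1.3-fold for only 4 of 21. Changes above 1.3-fold were therefore not excluded for the other 17, and the 3 whose interval passed 2-fold belonged to Drd2, Kcnj3 and Kcnj9. The median SE of the log2 change was 0.156, close to that of all probe sets, 0.149.

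**Figure D1:**
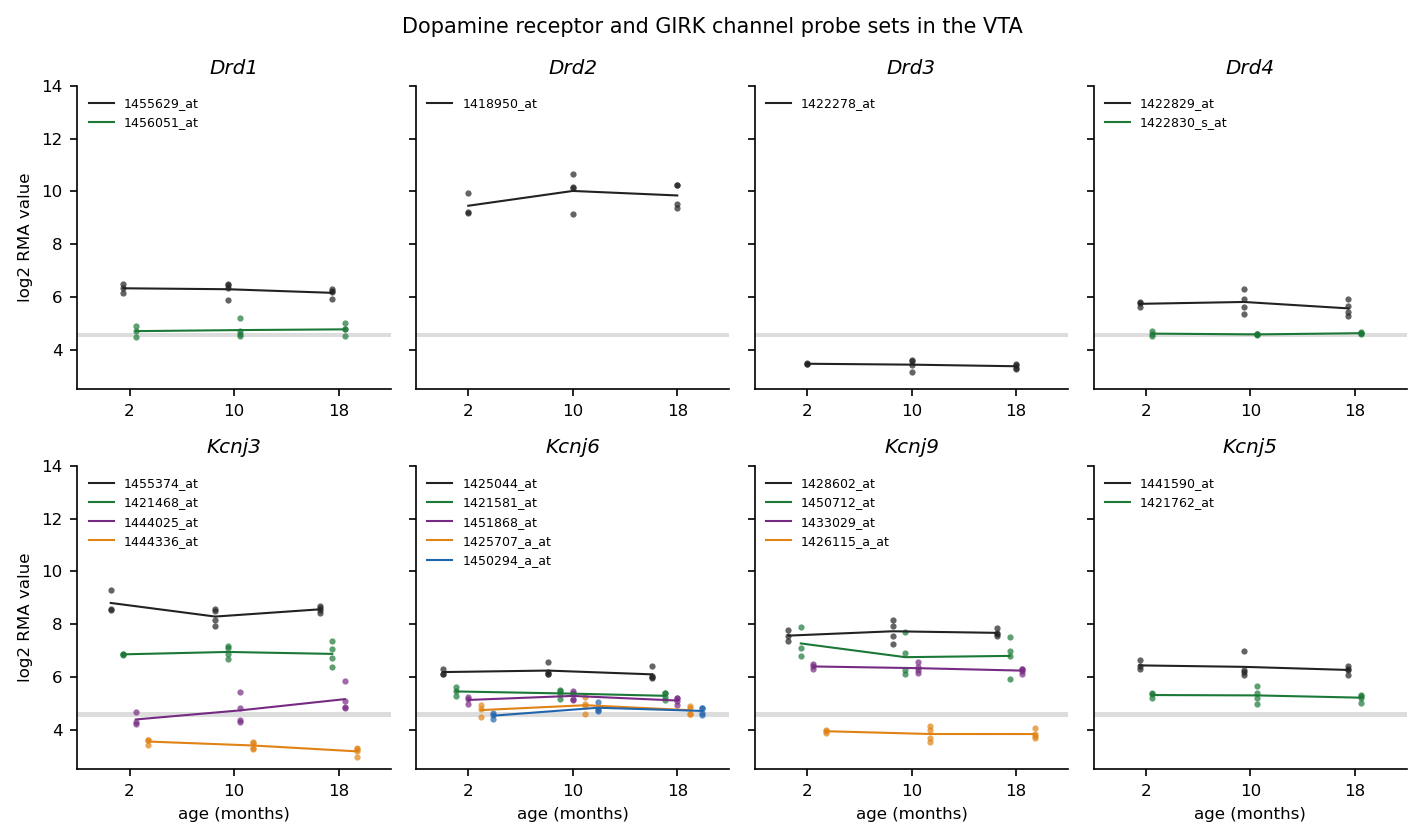
Log2 RMA value (y axis) of each probe set of the 8 measured genes at 2, 10 and 18 months (x axis). Points are samples (n = 3, 4 and 4), lines join the means of the ages, and the grey band is the range of the arrays' lower quartile, 4.475 to 4.649. Drd2 lies far above the band at every age, whereas Drd3 and 1 probe set each of Kcnj3 and Kcnj9 lie below it.

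Among the receptors, Drd2 (probe set 1418950_at) was above the upper quartile of the array in all 11 samples. Its log2 values were 9.22, 9.20 and 9.96 at 2 months, 10.66, 10.14, 9.13 and 10.16 at 10 months, and 10.23, 9.37, 10.25 and 9.54 at 18 months. Young arrays 1 and 2, array 3 at 10 months and arrays 2 and 4 at 18 months were low, and the ages overlapped. The mean was lowest at 2 months (9.46 ± 0.43, SD, n = 3) and highest at 10 months (10.02 ± 0.64, n = 4), with 9.85 ± 0.46 (n = 4) at 18 months, and no neighbours in this order differed beyond their spread. The log2 change was 0.39 ± 0.34 (SE) at 18 against 2 months, or 1.31-fold with a 95% interval of 0.777 to 2.21 (limma adjusted p = 0.545). At 10 against 2 months it was 0.56 ± 0.34 (adjusted p = 0.489), and at 18 against 10 months −0.17 ± 0.32 (adjusted p = 0.911). With a measure of label length as a covariate (described further on) the change at 18 against 2 months was −0.44 ± 0.96, so that even its direction was not fixed.

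Drd1 is mainly a receptor of neurons that receive dopamine. Its probe set 1455629_at lay between 5.90 and 6.50 over all samples, and the mean was 6.16 ± 0.16 at 18 months against 6.33 ± 0.17 at 2 months. The change of −0.17 ± 0.16 did not pass the test (adjusted p = 0.555), nor did that of 1456051_at, 0.07 ± 0.18 (adjusted p = 0.859). The signal of 1456051_at was weak, at 4.487 to 5.195, and below the lower quartile of its array in 4 of 11 samples. Both probe sets overlapped between all ages.

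Drd3 and Drd4, the other D2-like receptors, gave little signal. Drd3 (1422278_at) was below the lower quartile of the array in all 11 samples, at 3.14 to 3.59, so a change of this gene could hardly be seen. Drd4 had 1422829_at at 5.27 to 6.32 and 1422830_s_at at 4.52 to 4.70. The first changed by −0.17 ± 0.21 at 18 against 2 months (adjusted p = 0.683). The second was slightly higher in every sample at 18 months than at 10 months, at 4.60 to 4.66 against 4.57 to 4.59, but the difference of 0.05 ± 0.08 was within the error of the fit (adjusted p = 0.905). This was the only 1 of 21 probe sets without overlap between 18 and 10 months, against 2.73% of all probe sets.

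Of the channels, Kcnj3 held the probe sets nearest to the threshold, and they ran in different directions. For 1444025_at, the log2 values were 4.84, 5.09, 4.83 and 5.84 at 18 months, against 4.22, 4.65 and 4.29 at 2 months. The 10-month samples, at 4.83, 4.30, 5.43 and 4.35, spanned both. Every sample at 18 months was above every young sample, and the change was 0.77 ± 0.30 (1.70-fold, 95% interval 1.09 to 2.67, limma adjusted p = 0.14). In 4 of the 11 samples, none of them at 18 months, this probe set was below the lower quartile of its array, so the fold rests on weak signal at the younger ages.

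A further probe set of Kcnj3, 1444336_at, was lower in every sample at 18 months than in any young sample. Its values were 3.17, 2.95, 3.29 and 3.27 at 18 months, against 3.62, 3.59 and 3.42 at 2 months, all below the lower quartile of the array. The change of −0.37 ± 0.12 had the smallest adjusted p of the set (limma adjusted p = 0.0784) and a fold of 0.772, also short of 1.3-fold. These were the 2 of 21 probe sets without overlap at 18 against 2 months, against 23.6% of all probe sets.

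The remaining Kcnj3 probe sets were above the median of the array in every sample. For 1455374_at the values were 8.15, 7.94, 8.55 and 8.49 at 10 months, against 8.52, 9.30 and 8.58 at 2 months, and 8.41 to 8.69 at 18 months. Young array 2 was the highest sample, the ages overlapped, and the change at 10 against 2 months was −0.52 ± 0.20 (limma adjusted p = 0.231), with −0.24 ± 0.20 at 18 against 2 months (adjusted p = 0.515). It was also the 1 of 21 probe sets with an unadjusted p under 0.05 for a difference between the changes in the early and the late interval (limma adjusted p = 0.898). Over all probe sets 5.47% had such a p and 0% an adjusted p under 0.05 (0 probe sets). The fourth, 1421468_at, gave 0.02 ± 0.21 at 18 against 2 months (adjusted p = 0.971).

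Kcnj6, the channel subunit most tied to dopaminergic neurons, had 5 probe sets between 4.40 and 6.58, none above the upper quartile in any sample. At 18 against 2 months their changes ran from −0.16 ± 0.13 (1421581_at) to 0.18 ± 0.12 (1450294_a_at), with adjusted p of 0.408 or more. At 10 months 1450294_a_at had 5.05, 4.73, 4.82 and 4.71, against 4.40, 4.54 and 4.64 at 2 months. These ages did not overlap, as in 12.6% of all probe sets, and the change was 0.30 ± 0.12 (limma adjusted p = 0.244). The signal of 1450294_a_at was weak, below the lower quartile of its array in 2 of 11 samples and above the median in 0. The other 4 probe sets of the gene overlapped between these ages.

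Kcnj9 had the widest spread. For 1450712_at the values were 5.92, 6.96, 6.79 and 7.50 at 18 months, against 7.10, 7.91 and 6.80 at 2 months, with 6.92, 6.1, 7.69 and 6.27 at 10 months. High and low samples occurred at every age, and the change of −0.47 ± 0.43 at 18 against 2 months (0.721-fold, 95% interval 0.376 to 1.38, adjusted p = 0.558) was about as large as its error. For 1428602_at, above the median of the array in every sample, the change was 0.11 ± 0.20 (adjusted p = 0.796). Kcnj9 1426115_a_at was below the lower quartile in all samples. The remaining probe set, 1433029_at, lay between 6.12 and 6.56 and changed by −0.16 ± 0.12 at 18 against 2 months (adjusted p = 0.459).

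Kcnj5 encodes the subunit best known from the heart. Its probe sets 1441590_at, at 6.06 to 6.98, and 1421762_at, at 4.95 to 5.66, changed by −0.17 ± 0.20 and −0.10 ± 0.15 at 18 against 2 months (adjusted p = 0.651 and 0.746). Both overlapped between all ages.

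**Figure D2:**
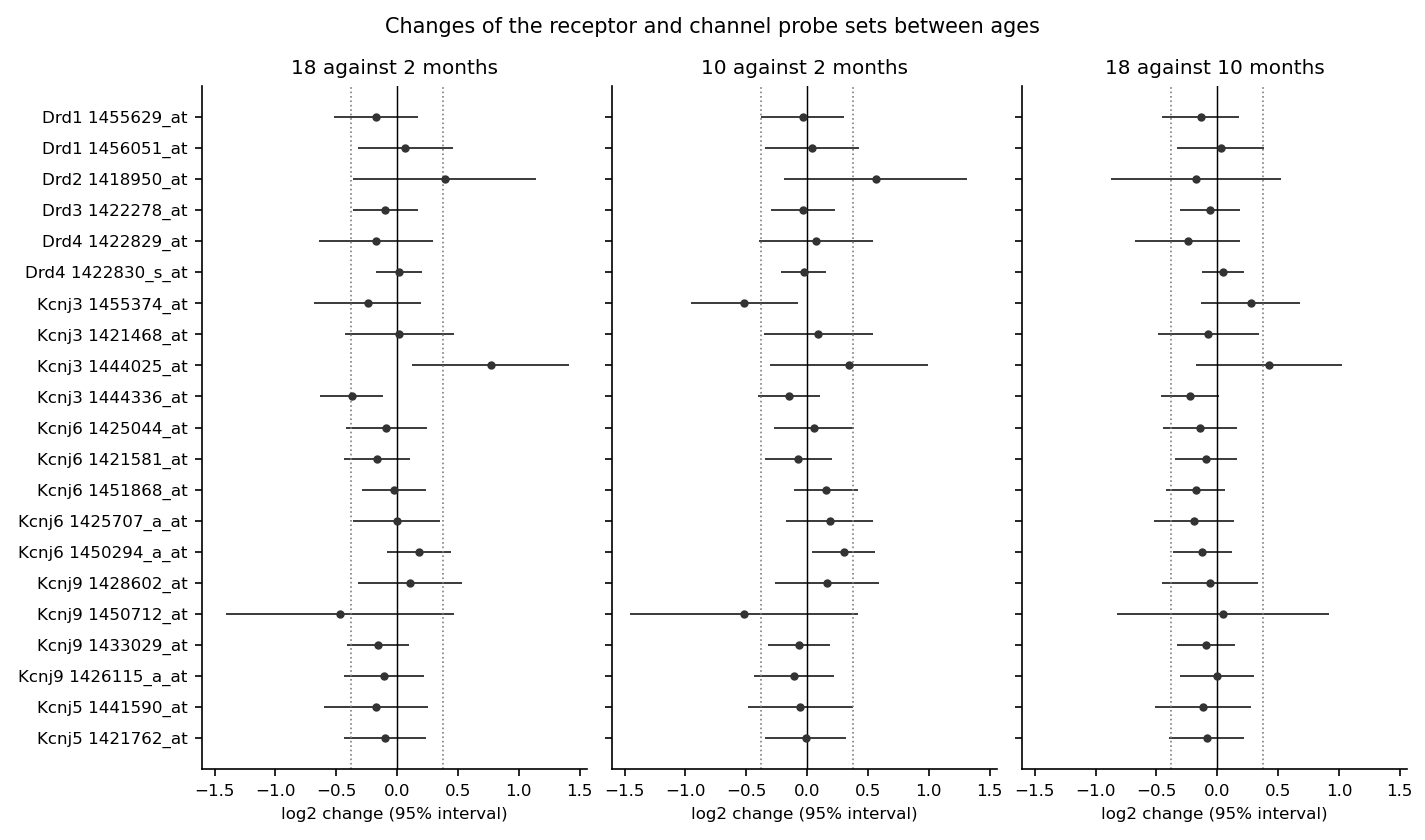
Log2 change (x axis, point) with its 95% interval (bar) from limma for each of the 21 probe sets, at 18 against 2 months, 10 against 2 months and 18 against 10 months. Dotted lines mark a 1.3-fold change in either direction, and 0 of 21 probe sets passed the test in any panel.

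Samples of one age differed among themselves, and for many of the probe sets this variation followed one axis. The first principal component over all probe sets that belong to no receptor or channel gene held 44.2% of the variance. Its scores were −16.6, 20.5 and −29.1 at 2 months, −16.3, −62.4, 69.7 and −37.5 at 10 months, and −19.2, 41.3, −10.5 and 60.2 at 18 months. Every age had samples on both sides of 0. The absolute correlation with this score exceeded 0.6 for 14 of 21 probe sets (66.7%), against 45% of all probe sets, a difference that was not tested. Of those beyond 0.6, 5 were positive and 9 negative, against 7337 and 12950 over all probe sets. By a permutation test with 100000 resamples, 13 of 21 correlations had an adjusted p under 0.05, 4 positive and 9 negative (n = 11 samples, adjusted over 21). This test asks only whether there is any relation, so it cannot set these probe sets apart from the rest of the array. The count of 13 rested on single arrays. It was 6 without array 2, 7 without array 3 and 8 without array 4 at 10 months, 8 without array 4 at 18 months, and 11 to 14 without any other. The relation was noticed in these data, and all values come from the same arrays and the same normalization.

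In Kcnj5, Kcnj9 and Kcnj3, probe sets of the same gene followed this score in opposite directions. For Kcnj5, 1421762_at had r = −0.866 (permutation adjusted p = 0.00388) and rho = −0.891 (adjusted p = 0.0124). The other Kcnj5 probe set, 1441590_at, had r = 0.715 (permutation adjusted p = 0.0196) and rho = 0.555 (adjusted p = 0.132). Without the samples farthest from the median score, array 3 at 10 months and array 4 at 18 months, these r were −0.696 and 0.503.

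Kcnj9 and Kcnj3 showed the same split. In Kcnj9, r was −0.744 for 1433029_at and 0.772 for 1450712_at (rho −0.782 and 0.782, permutation adjusted p of r 0.0196 and 0.0171, of rho 0.0222 for each), or −0.483 and 0.664 without those samples. In Kcnj3, r was −0.727 for 1421468_at and 0.861 for 1444025_at (rho −0.636 and 0.764, permutation adjusted p of r 0.0196 and 0.00462, of rho 0.0828 and 0.0253), or −0.473 and 0.698 without them. Samples with a high score thus tended to have one probe set of such a gene high and another low. In Kcnj6 the probe sets with a permutation adjusted p of r under 0.05 were all negative (r = −0.851, −0.763 and −0.674). Their rho was −0.691, −0.809 and −0.627 (permutation adjusted p = 0.0521, 0.0222 and 0.0828). Kcnj6 1425044_at had r = 0.616 (adjusted p = 0.0632). No share of such splits over all genes is given, so the split is not shown to be particular to the channels.

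Of the receptors, Drd4 1422829_at had r = −0.874 and rho = −0.736 (permutation adjusted p = 0.00388 and 0.0333; r = −0.793 without the same samples). Drd2 had r = −0.668 (permutation adjusted p = 0.0465) but rho = −0.5 (adjusted p = 0.184), and r = −0.571 without them. Drd1 1456051_at had r = 0.817 and rho = 0.809 (permutation adjusted p = 0.0101 and 0.0222), and Drd1 1455629_at r = 0.385 (adjusted p = 0.296). Drd3, below the lower quartile in every sample, had r = −0.765 and rho = −0.791 (permutation adjusted p = 0.0171 and 0.0222). For Drd4 1422830_s_at r was 0.134 (adjusted p = 0.698).

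**Figure D3:**
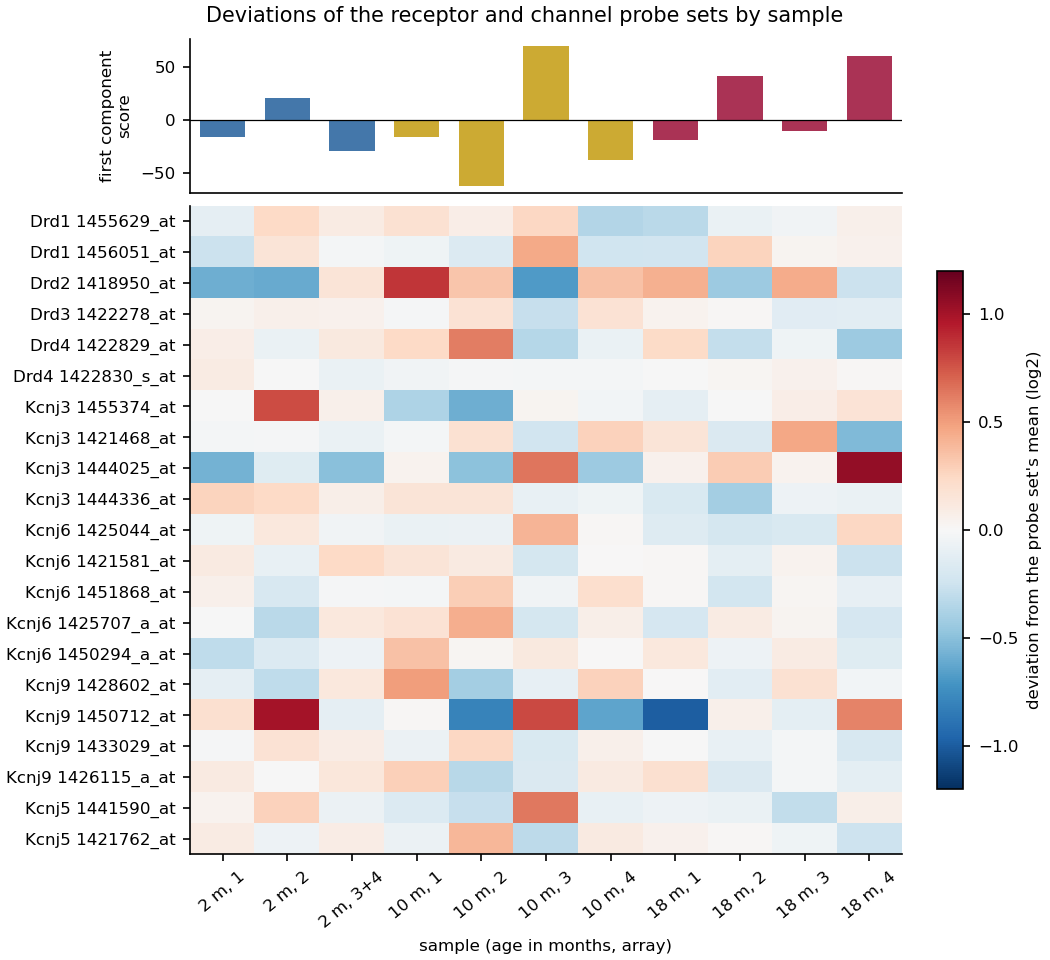
Upper panel, score on the first principal component (y axis) in each sample. Lower panel, deviation of each probe set (rows) from its own mean over 11 samples (log2, colour) in the samples (columns, age in months and array). Array 3 at 10 months (score 69.7) and array 4 at 18 months (60.2) differ from their age mates in many rows, with Kcnj3 1444025_at and Kcnj9 1450712_at high and Kcnj5 1421762_at low.

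**Figure D4:**
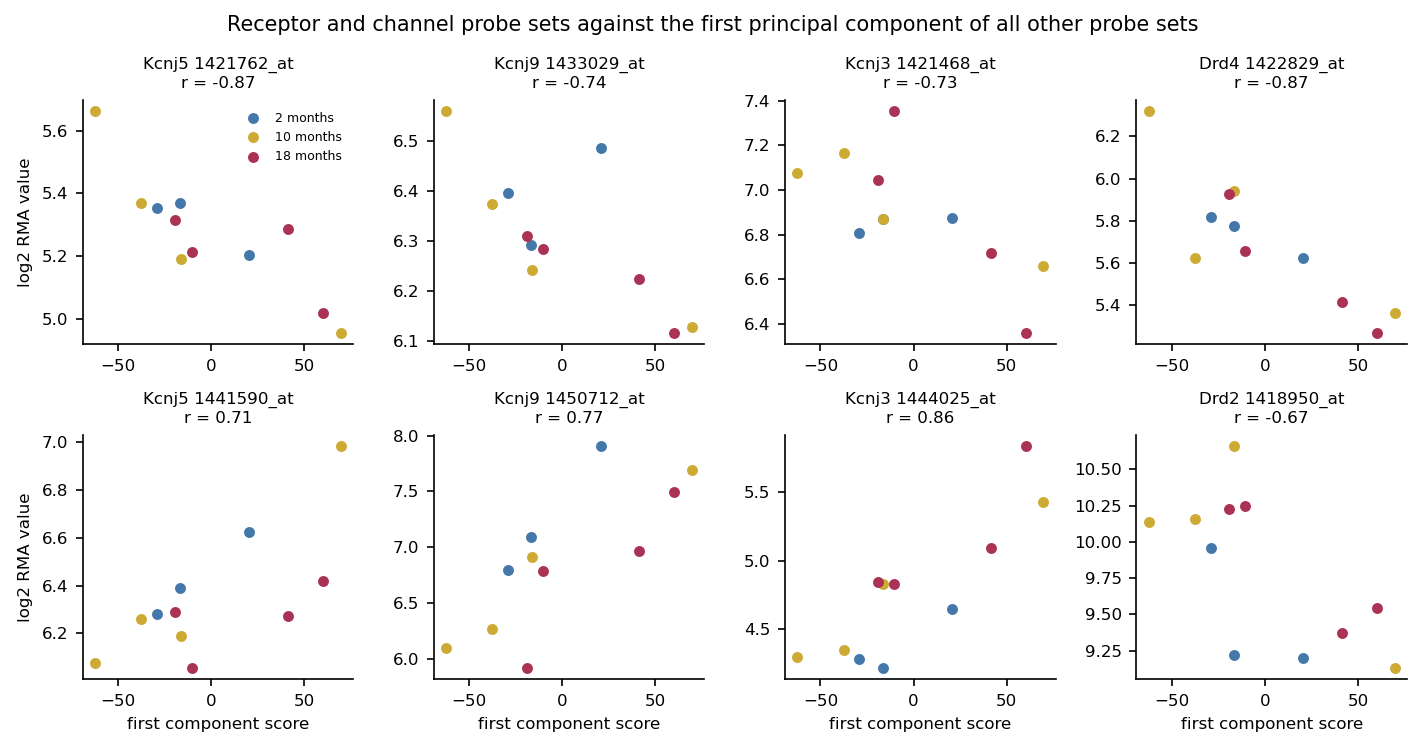
Log2 RMA value (y axis) of 8 probe sets against the score on the first principal component (x axis) in 11 samples coloured by age. In the first 3 columns the upper and lower probe sets belong to the same gene (Kcnj5, Kcnj9, Kcnj3) and slope opposite ways; the fourth column holds Drd4 and Drd2.

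With this score as a covariate, a fit chosen after the values were seen, some probe sets passed the test. At 18 against 2 months 3 of 21 (14.3%) were called, against 19.3% of all probe sets, and at 10 against 2 months 1 of 21 (4.76%), against 12%. At 18 against 10 months 0 of 21 were called, but only 2 of all probe sets were, so this count cannot set the members apart. The shares at 18 and at 10 against 2 months were below those of the whole array. They rest on counts of 3 and 1, and the difference was not tested.

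Kcnj9 1450712_at was lower at 18 than at 2 months by this fit, with a change of −0.84 ± 0.18 (0.56-fold, limma adjusted p = 0.00533), and stayed called when any of the 11 samples was left out (adjusted p 0.00235 to 0.0428). The other Kcnj9 probe sets were not called, and 1428602_at had 0.13 ± 0.19. Kcnj3 1444025_at was higher by 0.52 ± 0.13 (adjusted p = 0.0135) and stayed called in 9 of 11 such fits. The other Kcnj3 probe sets were not called and ran both ways. Of these, 1444336_at had −0.35 ± 0.11 (adjusted p = 0.045, short of 1.3-fold), 1455374_at −0.35 ± 0.16 and 1421468_at 0.15 ± 0.15. Drd2 was higher by 0.64 ± 0.21 (adjusted p = 0.0442) but stayed called in only 4 of 11 (adjusted p 0.0117 to 0.229). At 10 against 2 months Kcnj3 1455374_at changed by −0.50 ± 0.16 (adjusted p = 0.0494) and stayed called in 2 of 11.

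A difference between the ages in the array controls accompanies every comparison with 2 months. The 3′ minus 5′ difference of the Actb and Gapdh control probe sets, which grows as less of a transcript is labelled, averaged 3.47 ± 0.17 at 2 months, 2.15 ± 0.34 at 10 months and 1.98 ± 0.24 at 18 months on the log2 scale (SD over 3, 4 and 4 samples). The differences of −1.49 at 18 against 2 months and −1.32 at 10 against 2 months each had an exact two-sided permutation p = 0.0286, which is as low as 35 splits can give (adjusted p = 0.0429 over 3 comparisons). At 18 against 10 months the difference was −0.167 (exact permutation p = 0.486). With this measure as a covariate 0 of 21 probe sets and 0 of all probe sets were called, the median SE at 18 against 2 months was 0.433, and 12 of the 21 changes took the other sign. Since no sample at 2 months overlapped with a later one in this measure, label length and age cannot be told apart in the comparisons with 2 months. The samples at 18 and 10 months did overlap, and there the covariate left a median SE of 0.152, with 2 of the 21 changes taking the other sign and 0 called. The mean of the added poly-A control probe sets also differed, at 6 to 6.26 at 2 months, 6.37 to 6.56 at 10 months and 6.73 to 7.52 at 18 months. The part of these controls in the receptor and channel values was not tested.

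The cells behind the signal were checked with marker genes. Of 10 markers of dopaminergic neurons, 8 were above the upper quartile of the array in every sample, and the mean log2 level of the list was 11.7 to 11.9 at 2 months, 11.8 to 12 at 10 months and 11.9 to 12 at 18 months. Th, which makes the precursor of dopamine, rose at 18 against 2 months by 0.84 ± 0.14 (limma adjusted p = 0.00735, called in 11 of 11 fits with a sample left out), and Foxa2, a transcription factor of these neurons, fell by 0.61 (adjusted p = 0.029, 6 of 11). Of 6 microglial markers 3 rose at 18 against 2 months (Ctss and P2ry12, each called in 11 of 11 such fits, and Tmem119 in 3 of 11), and the mean level of that list was 9.09 to 9.21 at 2 months, 9.48 to 9.6 at 10 months and 9.55 to 9.72 at 18 months. Of 7 general neuronal markers, Snap25 and Syt1 rose by 0.97 and 0.67 and Rbfox3 fell by 0.57 at 18 against 2 months, but other probe sets of Snap25 and Syt1, at −0.964 and −0.992, were called the opposite way. The mean level of that list was 11.6 to 11.9 at 2 months, 11.6 to 12.3 at 10 months and 11.9 to 12.2 at 18 months. Of 5 choroid plexus markers 1, Clic6, rose (0.76, 4 of 11), but the list's median change was −0.0501 and its lowest −1.92, not called. The mean level of that list was 5.62 to 6.12 at 2 months, 5.52 to 5.95 at 10 months and 5.26 to 5.67 at 18 months. The part of these cell types in the receptor and channel values was not tested. None of 7 striatal or 6 pituitary markers, from tissues rich in D2 receptors, was called at either later age. Over all genes 5.77% rose and 3.05% fell at 18 against 2 months, and 1% and 0.484% at 10 against 2 months. None of 3 serotonergic markers was called, but the mean level of that list varied widely, at 6.58 to 8.23 at 2 months, 5.56 to 7.17 at 10 months and 5.86 to 7.55 at 18 months. Its part in the receptor and channel values was not tested either. In whole tissue, fewer cells of a type and less RNA per cell cannot be told apart.

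The genes most like Drd2 and Kcnj6 were sought at 1 probe set of each gene, that with the highest mean. Over the 11 samples, the genes whose pattern was most like that of Drd2 were Tubg1 (Pearson's r = 0.983), Sharpin (0.982) and Miip (0.981), and 416 of 27694 probe sets compared had r over 0.9. For Kcnj6 1425044_at, 1 of the 5 probe sets of that gene, they were 9030607L20Rik (0.924), Hspa13 (0.902) and Map2 (0.893), and 2 of 27690 had r over 0.9. This probe set was highest in array 3 at 10 months (6.578) and array 4 at 18 months (6.414), against 5.955 to 6.294 in the other samples. Its correlations may rest on these arrays and were not computed without them. All these likenesses are descriptions across samples of 3 ages that share the first component, with no test.

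The genes that act around these receptors and channels were taken from 8 lists with 101 of 109 genes measured, each at its probe set with the highest mean. At 18 against 2 months 6 of the 101 rose and 2 fell, against 5.77% and 3.05% of all genes. At 10 against 2 months 0 rose and 1 fell, against 1% and 0.484%, and at 18 against 10 months 0 were called.

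Of the genes that rose at 18 against 2 months, 1 was among the 5 Gi/o alpha subunits and 2 among the 14 beta and gamma subunits measured. Over all genes 5.77% rose. Gnai3, a Gi alpha subunit, averaged 9.90 ± 0.29 (SD, n = 4) at 18 months against 8.88 ± 0.42 (n = 3) at 2 months, a change of 1.02 ± 0.26 (limma adjusted p = 0.0378). It stayed called in only 3 of 11 fits with a sample left out. Gnb5, the beta subunit that pairs with RGS proteins, rose by 1.02 ± 0.22 (adjusted p = 0.0196, 8 of 11), and Gng12, a gamma subunit, by 0.82 ± 0.19 (adjusted p = 0.0243, 6 of 11). Another probe set of Gnai3 had 0.128, another of Gnb5 −0.225 and another of Gng12 −0.156, none of them called. The median change was 0.109 over the 5 Gi/o alpha subunits and −0.00713 over the 14 beta and gamma subunits measured, against −0.0242 over all genes.

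Prkaca, the catalytic subunit of protein kinase A downstream of D1-like receptors, changed by −0.67 ± 0.12 at 18 against 2 months (limma adjusted p = 0.00979, 10 of 11 fits) and by −0.55 ± 0.12 at 10 against 2 months (adjusted p = 0.0492, 2 of 11), lower at both later ages. Its other probe set changed by 0.076 at 18 against 2 months. The other 17 D1-like effectors measured were not called, and the list's median was 0.151. Of 6 receptor kinases and arrestins, which switch receptors off after activation, Grk5 rose by 0.84 ± 0.23 (adjusted p = 0.0469, 2 of 11) and Grk6 fell by 0.77 (adjusted p = 0.0179, 10 of 11). Grk6 had other probe sets at 1.01 and 0.628, not called.

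Of 14 trafficking and calcium-sensor partners, 2 proteins linked to the cytoskeleton rose. Epb41l2 changed by 0.99 ± 0.15 (adjusted p = 0.00611) and was called in all 11 fits with a sample left out, while its other probe sets had −0.327 to 1.14 and were not called. Flna, a filamin known to bind D2 receptors, changed by 0.56 ± 0.13 (adjusted p = 0.0274, 7 of 11). The list's median was 0.319. None of the 16 RGS proteins, which shorten Gi/o signalling, was called (median 0.117), nor any of 17 other receptors that can couple to GIRK channels (0.0978) or of 11 other inward rectifier channels (−0.121). All of these calls were lost with label length as a covariate, as were those of all other probe sets.

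**Figure D5:**
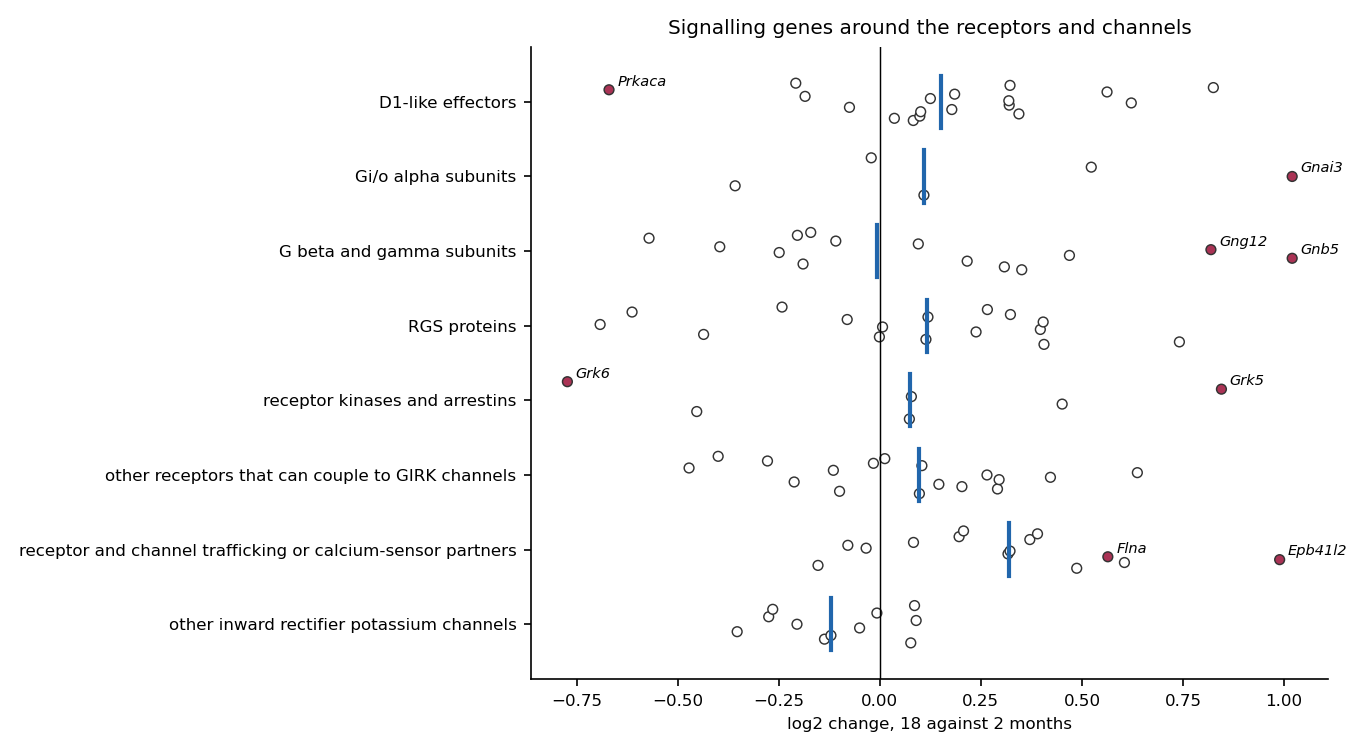
Log2 change at 18 against 2 months (x axis) of the 101 genes measured in 8 lists of signalling genes (rows). Each circle is a gene at its probe set with the highest mean, filled and named where called, and the blue bar is the list's median; 6 filled circles lie right of 0 and 2 left of it.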

How the data were processed

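VTA RNA of 12 pools of 5 mice was measured on Affymetrix mouse expression arrays after two-cycle labelling. The authors background-corrected, normalised and summarised the arrays by RMA and deposited 1 log2 value per probe set and array. Limma 3.4.5 is named in the notes on processing that the submitters gave. Of 45101 probe sets, 64 controls were left out and 45037 tested. Genes were named from the array's annotation (34945 probe sets with 1 gene, 34741 of them matched by gene number to a table of assembly GRCm38.p6, used for names only). No genome positions are given, as the annotation names no build.

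A single model with 1 mean for each age was fitted in R 4.3.3 with limma 3.58.1 (functions lmFit, contrasts.fit and eBayes, checked on simulated data), with Benjamini-Hochberg adjustment over the 45037 probe sets. Where a p stands beside a log2 change, it is from this fit. Arrays have no read depth, and their number limits the precision. Scores of the first principal component were computed without the receptor and channel probe sets. Every probe set of the member genes was analysed and is described singly or in a range; genes of the other lists were named where called, at most 4 a list, and 3 genes most like Drd2 and Kcnj6 were named by correlation. The members and lists were chosen with earlier results of these data known. Alternatives were separate arrays, a block for the replicate number, label length as a covariate, median centring, a low-value filter, trend and robust estimation, only the ages compared, no fold threshold and each sample left out. The first component as a covariate was chosen after seeing the data.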

Additional observations from a re-analysis of the deposited data

Results flagged for a closer look

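Kcnj6 1425044_at stood out in 1 sample. Array 4 at 18 months had a log2 value of 6.41, against 5.96 to 6.01 in the other samples of that age, a gap of 0.877 of the group's range. This was 1 of 42 groups of 4 samples tested, and chance flags about 1 in 20. That sample had a first component score of 60.2, the highest at 18 months. The part of this in the value was not tested.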

How the results depend on the processing

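Under the alternatives planned first, 0 of the receptor and channel probe sets tested were called. These were 21, or 18 with the filter on low values, and the fit with only the ages compared gave no value for the unequal change. Of 1479 changes under 18 such settings, none was called and 115 took another sign, all where neither value was called. The smallest adjusted p, 0.0481 (Kcnj3 1444336_at, trend and robust estimation), came with a change under 1.3-fold. With the first component as a covariate, chosen after seeing the data, 3 of 21 probe sets were called at 18 against 2 months, against 19.3% of all probe sets. At 10 against 2 months it was 1 of 21, against 12%. With each sample also left out, 1 to 4 and 0 to 2 were called (0 in each leave-one-out fit without the covariate). With a sample left out, the 3′ minus 5′ difference ranged from −1.58 to −1.38 at 18 against 2 months (−1.48 without young arrays 3 and 4) and from −1.42 to −1.17 at 10 against 2 months (−1.31 without these arrays). The exact permutation p was then 0.0667 or 0.1 where the sample came from either age compared, since no smaller p is possible.

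Counts over all probe sets depended on the samples. At 18 against 2 months, 3359 were called, 423 without young array 1, 1668 without young array 2, 5326 without array 3 at 10 months, 1937 to 2111 without any one sample at 18 months, and 0 with label length as a covariate. At 10 against 2 months, 613 were called, 977 with 12 separate arrays, 217 with trend and robust estimation, 0 with only these ages, 0 with label length, and 1 to 1276 with a sample left out. The replicate numbers did not pair the samples (12 correlations of same-numbered deviations from −0.611 to 0.431). With the replicate number as a block on separate arrays, 0 members were called, and over all probe sets 2548, 3 and 0 were called at 18 against 2, 10 against 2 and 18 against 10 months. Signal near background, as for Drd3, limits what can be seen.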
